A study of Mus musculus with 8 samples.

Results

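Cytosolic ribosomal protein genes encode the protein components of the ribosome outside mitochondria, and they are described here in mouse gastrocnemius muscle with and without the glucocorticoid receptor. Members were the genes whose probe sets carry a single symbol of the form Rpl or Rps with a number, with the stalk genes Rplp0 and Rplp2 and the laminin receptor-type protein gene Rpsa. Kinase genes (Rps6k), pseudogenes and Y-linked names were left out. Of 18193 genes with a single-symbol probe set, 46 were members, 24 of the large and 22 of the small ribosomal subunit, with 100 probe sets between them. Each gene was represented by its brightest probe set over the 8 arrays. A further 28 ribosomal protein genes, among them Rpl3, Rpl5, Rplp1 and Rpl10, are listed only on probe sets shared with other symbols and are not in this set.

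The 8 samples were total RNA of gastrocnemius, a hindlimb muscle, from C57/Bl6J mice, with 1 array each. The 4 control samples are labelled wild type and the 4 GR_KO samples are labelled knockouts of the glucocorticoid receptor gene, written GR(i)skm-/- in the study's design. The sources used here give no Cre driver, no age or sex of the mice and no treatment of either group. Nothing states that each sample came from its own animal. The p-values therefore reflect sample-to-sample spread alone, some of which may be technical. In a bulk muscle sample, fewer cells of a type and less RNA per cell cannot be told apart.

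A cytosolic ribosome holds a small subunit, which reads the mRNA, and a large subunit, which joins amino acids. Both are made of ribosomal RNA and a fixed set of proteins present in about equal numbers, and the genes for these proteins are known to be transcribed together at high levels. Their mRNAs start with a run of pyrimidines (C and T), the 5′ terminal oligopyrimidine or TOP motif, through which mTORC1 signalling controls their translation more than their amount. Glucocorticoids are known to restrain protein synthesis in muscle, partly through mTORC1. The arrays measure mRNA amount only, so translation of these mRNAs was not measured.

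To show how the starts of these genes differ, stretches of 80 bases around the annotated transcription start are printed below for some members. They run from 60 bases before to 20 after the start, 5′ to 3′ on the gene's strand. They are RefSeq promoter sequences of GRCm38.p6, and the capitals mark the longest C and T run that overlaps the 20 bases on either side of the start. The first is Rps6 at chr4:86857348-86857427 on the minus strand. Rps10 lies at chr17:27635225-27635304 (minus), Rpl4 at chr9:64173327-64173406 (plus) and Rpl13a at chr7:45128726-45128805 (minus). Rps27 at chr3:90213629-90213708 (minus) is set beside its paralog Rps27l at chr9:66946026-66946105 (plus). Rpl3l, a paralog of Rpl3 known for its expression in striated muscle, lies at chr17:24727766-24727845 (plus), and Rps4x at chrX:102189372-102189451 (minus).
Rps6: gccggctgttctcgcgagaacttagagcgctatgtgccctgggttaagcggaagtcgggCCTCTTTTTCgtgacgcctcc
Rps10: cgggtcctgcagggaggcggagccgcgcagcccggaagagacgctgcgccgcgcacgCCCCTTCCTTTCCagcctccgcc
Rpl4: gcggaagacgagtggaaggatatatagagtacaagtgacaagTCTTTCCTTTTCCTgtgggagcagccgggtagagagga
Rpl13a: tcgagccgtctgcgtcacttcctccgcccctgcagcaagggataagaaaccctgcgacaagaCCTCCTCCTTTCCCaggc
Rps27: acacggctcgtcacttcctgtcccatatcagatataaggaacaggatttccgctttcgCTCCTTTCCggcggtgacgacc
Rps27l: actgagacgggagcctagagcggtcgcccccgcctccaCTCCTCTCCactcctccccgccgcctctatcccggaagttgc
Rpl3l: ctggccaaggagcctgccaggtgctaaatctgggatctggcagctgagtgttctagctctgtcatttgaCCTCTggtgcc
Rps4x: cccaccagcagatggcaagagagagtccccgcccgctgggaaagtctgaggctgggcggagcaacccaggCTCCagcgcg
The marked run held 10 bases in Rps6, 13 in Rps10, 14 in Rpl4 and Rpl13a and 9 in Rps27 and Rps27l, against 5 in Rpl3l and 4 in Rps4x. The runs of Rps27l and Rpl4 ended before the annotated start of the gene, whereas that of Rps6 began 1 base before it.

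RefSeq promoter windows, from 250 bases before to 50 after the start, were found for 40 of the 46 members, with 48 windows in all. A C and T run of at least 8 bases that overlapped the 20 bases on either side of the start was present in 23 of the 48 (47.9%), against 21% of all 32851 windows. The median of the longest such run was 7 bases against 5, and runs elsewhere in the window were not counted. The motif CCGGAAG, bound by ETS family factors and searched on both strands like those that follow, was in 20 windows (41.7%), against 8.86% of all windows. AAGATGG, a YY1 motif, was in 7 (14.6% against 6.34%), GGGCGG, a GC box, in 24 (50% against 35.7%) and TATAAA in 5 (10.4% against 13.6%). The consensus palindrome of the glucocorticoid response element was in 0 of the 48 windows and in 0.475% of all windows. Its single arm AGAACA, which can lie within the longer motif, was in 9 windows (18.8% against 19%). These matches are descriptions of letters in a window and say nothing of binding in these muscles.

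All values are MAS5 signals, a scaled linear intensity, and log2 fold changes are GR_KO over control. Summary signals are mean ± SD over 4 arrays (n = 4), and a fold change has its standard error (SE) from the fit. Signals of different probe sets are not compared with each other. As a check of the labels, the Nr3c1 (glucocorticoid receptor) probe set 1460303_at had signals of 377, 307, 307 and 352 in controls and 134, 79, 76 and 94 in GR_KO, a log2 fold change of -1.84. The brightest Nr3c1 set, 1421867_at, had overlapping groups and -1.07, and was not called (adjusted p = 0.777 in limma). All 6 Nr3c1 sets were below 0, with overlapping groups in 4. Arrays had median signals of 18 to 26. Control replicate 4 stood apart: the geometric mean of its spike-in probe sets was 3.17-fold that of the other controls. Its GAPDH 3′/5′ ratio was 1.2, against 0.797 to 0.915 on the other arrays, while its actin ratio of 1.73 lay within the 0.991 to 1.84 of the others. The 15 muscle fibre markers were all tested, with summed signals of 155521 to 330071 in controls and 140869 to 219446 in GR_KO, and the highest sum was that of control replicate 4. Results are therefore also given without this array.

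In the comparison of GR_KO with control, which addresses whether loss of the receptor in muscle changes the mRNAs of the ribosome, no ribosomal protein gene passed the test in either direction. Of the 46 members 44 were bright enough to test, 23 large and 21 small subunit genes, and limma called 0 higher and 0 lower at an adjusted p of 0.05 (adjusted p from 0.876 to 0.992). Over all 11062 genes tested, 6 (0.0542%) were called. At an unadjusted p under 0.05 the count was 1 of 44 members, Rps6, against 4.63% of all genes. The median log2 fold change of the members was 0.06, from -0.27 for Rpl4 to 0.74 for Rps6, beside 0.01 for all genes. It was above 0 in 35 of 44 members (79.5%), against 52.2% of all genes. Among the 980 genes with a mean signal above 1000 the median was also 0.06, and 63.3% lay above 0. Of the 35 members that bright, 29 lay above 0 with a median of 0.06.

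The folds of the brighter members were narrowly bounded. The median SE of all members was 0.17 (0.12 to 0.33) on the log2 scale, beside 0.20 over all genes. It was 0.16 both for the 35 members and for the 980 genes with a mean signal above 1000, and 0.23 for the 9 dimmer members. For 36 of 44 members (81.8%) the 95% interval of the fold change lay within 1.5-fold in both directions, which held for 42% of all genes. Above a mean signal of 1000 it held for 32 of 35 members (91.4%) and 65% of the 980 genes. Of the 9 dimmer members it held for 4 (44.4%). The difference was under 0.1 log2 units in 26 members. By subunit, the large subunit genes had a median of 0.07 with 20 of 23 above 0, and the small subunit genes had a median of 0.05 with 15 of 21 above 0.

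**Figure D1:**
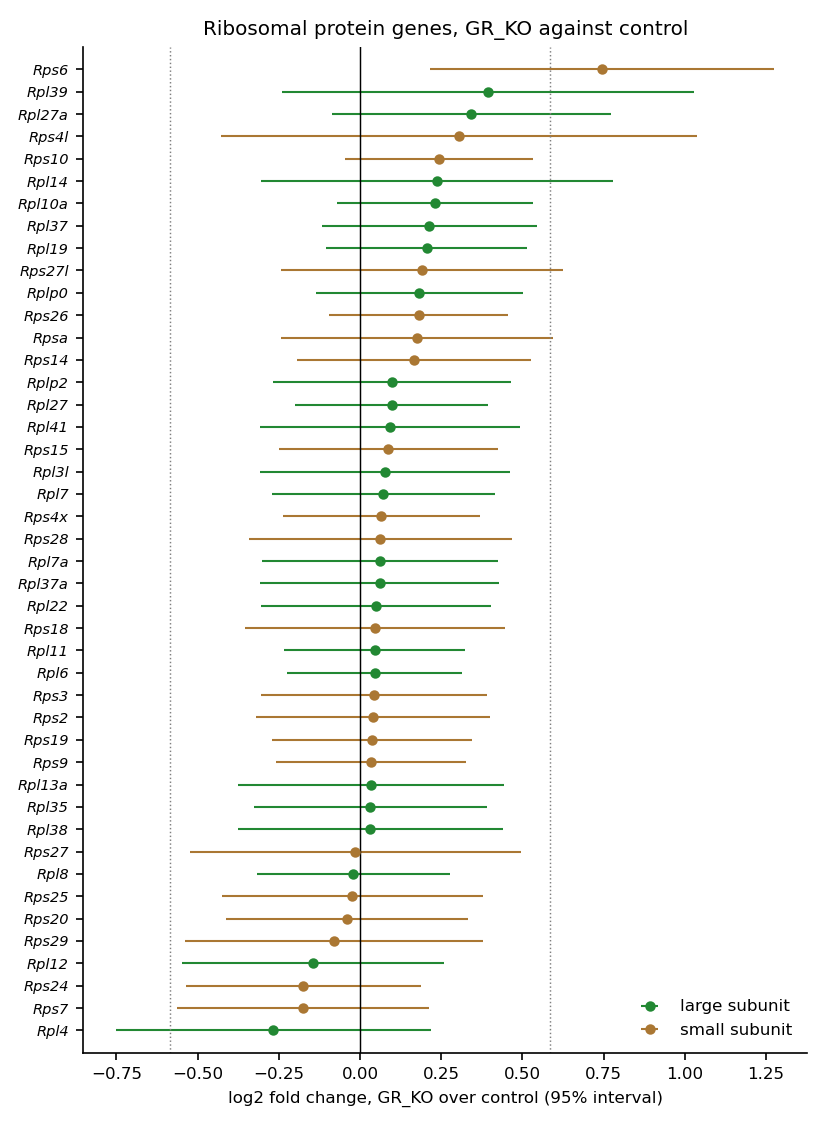
Log2 fold change (GR_KO over control, n = 4 against 4) of the 44 tested ribosomal protein genes with 95% intervals from limma, large subunit genes in green and small subunit genes in brown, with dotted lines at 1.5-fold. Only the interval of Rps6 leaves out 0, and 36 of the 44 intervals lie between the dotted lines.

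Rps6 encodes the small subunit protein phosphorylated by S6 kinase downstream of mTORC1. Its single-symbol probe set 1416142_at had signals of 161, 207, 137 and 84 in controls and 266, 210, 247 and 219 in GR_KO. Every GR_KO array was above every control array, by a margin of 207 against 210 at the closest, and control replicate 4 was the lowest. By the brightest probe set of each gene, Rps6 was the 1 member with all GR_KO above all control, which held for 1.28% of all genes. All GR_KO lay below all control in 0 members and in 1.29% of all genes. The means were 147 ± 51.2 and 236 ± 25.7, a log2 fold change of 0.74 (SE 0.24, 1.68-fold, 95% interval 1.16 to 2.42). The adjusted p in limma was 0.876. Without control replicate 4 the log2 fold change was 0.50 (adjusted p = 0.980 in limma).

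Probe sets that list Rps6 with another symbol gave other values. In all, 9 probe sets list Rps6 together with the pseudogene Rps6-ps4, and the 8 bright enough to test had log2 fold changes from -0.08 to 0.38. The other, 1435962_at, lay at 2 to 9 and had -0.46 (SE 0.55). The brightest of them, 1416141_a_at, gave 7393, 7178, 6867 and 11267 in controls and 6903, 9371, 9272 and 7235 in GR_KO. Its groups overlapped, control replicate 4 was the highest array, and its log2 fold change was 0.02 (SE 0.21). The next brightest, 1434377_x_at, had 0.00240 (SE 0.16), and 1455693_x_at had 0.06 (SE 0.18). The second probe set with the symbol Rps6 alone was dim, at 1 to 11 on all arrays.

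The stalk of the large subunit, formed by Rplp0 with Rplp1 and Rplp2, recruits the translation factors that hydrolyse GTP. Rplp0 had signals of 5169, 5555, 6112 and 5891 in controls and 5140, 6971, 6777 and 7056 in GR_KO. In GR_KO, replicates 2 to 4 were above every control, while replicate 1 was the lowest of all 8 arrays. The log2 fold change was 0.18 (SE 0.14), with an adjusted p of 0.880 in limma. Rplp2 read 7171, 7185, 6715 and 9766 against 6690, 9244, 9072 and 7913, so control replicate 4 was the highest array and GR_KO replicate 1 the lowest. Its log2 fold change was 0.10 (SE 0.17) with all arrays and 0.22 without control replicate 4.

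Among the other large subunit proteins, Rpl10a, which forms the side stalk near the tRNA exit site and is widely used as a tag for isolating ribosomes, had signals of 4211, 4621, 4236 and 4113 in controls and 4141, 5269, 5744 and 5115 in GR_KO. GR_KO replicates 2 to 4 were again above all controls, and GR_KO replicate 1 was within the control range. The log2 fold change was 0.23 (SE 0.14, 1.17-fold, 95% interval 0.951 to 1.45). Rpl19, a large subunit protein often used as a reference gene, read 4208, 4785, 4587 and 4589 against 4227, 5950, 5627 and 5281, with the same arrangement and a log2 fold change of 0.20 (SE 0.14). Both had an adjusted p of 0.880 in limma.

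Rpl4, a core large subunit protein that lines the exit tunnel of the growing chain, had the lowest fold change. It read 4606, 3396, 4255 and 7259 in controls and 4963, 3580, 3652 and 3556 in GR_KO. Control replicate 4 was far above the other 7 arrays, and the rest of the 2 groups overlapped. The log2 fold change was -0.27 (SE 0.22, adjusted p = 0.880 in limma), and it was -0.06 without control replicate 4. Rpl11, which with Rpl5 is known to bind the p53 regulator Mdm2, read 1697, 1626, 1642 and 2092 against 1789, 1738, 1895 and 1824. The GR_KO arrays were all above controls 1 to 3 and all below control replicate 4, and the log2 fold change was 0.05 (SE 0.13). Rpl13a, known for its role in the interferon-gamma controlled silencing of inflammatory mRNAs, read 6721, 6807, 6307 and 10671 against 6448, 8183, 8642 and 7409. Control replicate 4 was again the highest, and the log2 fold change was 0.03 (SE 0.19) with all arrays and 0.21 without that array. Dimmer probe sets of Rpl13a gave 0.12 (SE 0.14), 0.22 (SE 0.11) and 0.21 (SE 0.14). In 1455001_x_at, at 769 to 833 in controls and 859 to 970 in GR_KO, all GR_KO lay above all control (adjusted p = 0.963 in limma).

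Other large subunit genes had dimmer probe sets. Rpl27a had 368, 517, 357 and 318 against 356, 520, 597 and 506, overlapping groups and a log2 fold change of 0.34 (SE 0.20). Rpl39, a very small protein of the exit tunnel, had 163, 114, 84 and 76 against 96, 178, 191 and 108, and a log2 fold change of 0.39 (SE 0.29). Both groups of Rpl39 spread over about the same range, and its value ran from 0.23 without GR_KO replicate 3 to 0.61 without control replicate 1. Rpl37 had 519, 622, 473 and 562 against 648, 500, 713 and 671 (log2 fold change 0.21, SE 0.15). Rpl14 lay between 25 and 46 on all arrays (0.24, SE 0.25), and Rpl12, a protein at the base of the stalk, between 63 and 100 (-0.15, SE 0.18). Without control replicate 4 they were 0.12 and -0.05. None of these 5 genes passed the test, with adjusted p between 0.880 and 0.900 in limma.

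In the small subunit, Rps10, a protein at the mRNA entry side, had signals of 5227, 5766, 5601 and 5406 in controls and 5513, 6584, 7096 and 6959 in GR_KO. GR_KO replicates 2 to 4 were above every control, and GR_KO replicate 1 was within the control range. The means were 5500 ± 234 and 6538 ± 717, a log2 fold change of 0.24 (SE 0.13, 95% interval of the fold 0.969 to 1.45). The adjusted p in limma was 0.880. Rps26, which contacts mRNA just upstream of the start codon, read 3710, 3774, 3628 and 3692 against 3629, 4259, 4687 and 4271. The 4 controls were close together (3701 ± 60.1) and GR_KO spread more widely (4212 ± 436), with a log2 fold change of 0.18 (SE 0.13). Rpsa, also known as the laminin receptor-type protein of the small subunit, read 7104, 6997, 5576 and 9065 against 6299, 9209, 9768 and 7214. Its groups overlapped, with a log2 fold change of 0.18 (SE 0.19), and 0.29 without control replicate 4.

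Of the 21 tested small subunit genes, 6 had a log2 fold change below 0. Rps25 (-0.02, SE 0.18) was highest on GR_KO replicate 3, and the others of this group were highest on control replicate 4. Rps7 had 4917, 4266, 4035 and 6876 against 4373, 4723, 4510 and 3834, with a log2 fold change of -0.18 (SE 0.18) and -0.01 without that array. Rps24 had 5301, 4442, 5179 and 7333 against 5212, 4995, 4886 and 4332, and -0.17 (SE 0.16) became -0.03. Rps29, one of the smallest zinc-binding proteins of the subunit, had 10883, 10131, 9127 and 17751 against 9581, 11431, 12945 and 10074. Its log2 fold change was -0.08 (SE 0.21) with all arrays and 0.13 without control replicate 4, a change of sign. Rps20 likewise went from -0.04 to 0.08. Rps19, whose human counterpart is mutated in Diamond-Blackfan anaemia, read 1951, 2316, 2350 and 2788 against 2139, 2492, 2541 and 2429. The groups overlapped, and its log2 fold change was 0.04 (SE 0.14).

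**Figure D2:**
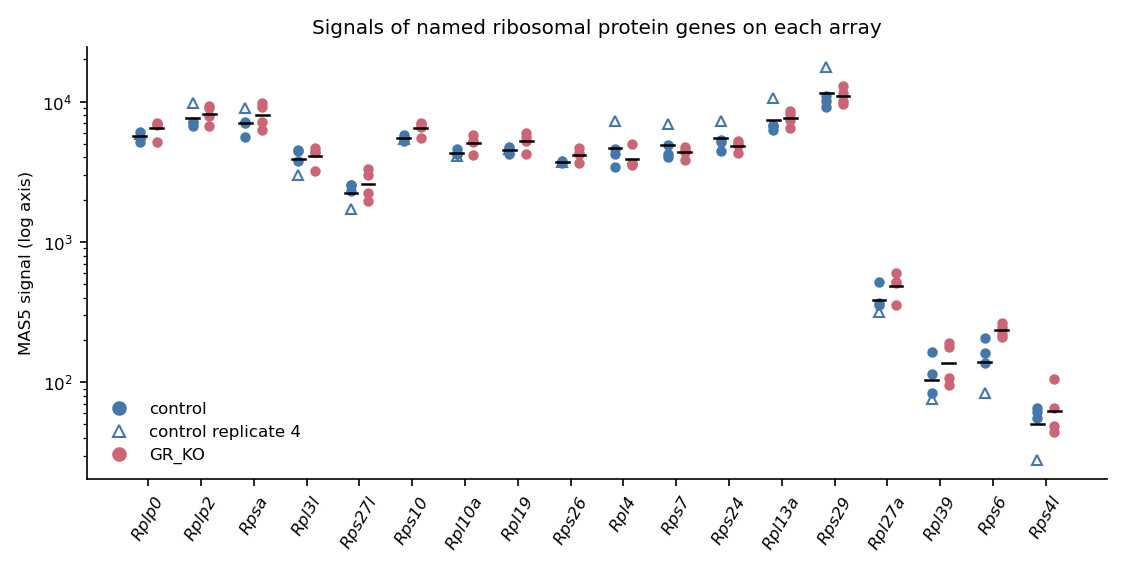
MAS5 signal (log axis) on each of the 8 arrays for 18 ribosomal protein genes, with controls as blue circles, control replicate 4 as an open triangle, GR_KO as red circles and black bars at the geometric mean of each group of 4. Levels compare arrays within a gene, not genes. The triangle is the highest control in Rplp2, Rpsa, Rpl4, Rps7, Rps24, Rpl13a and Rps29. It is the lowest control in Rpl3l, Rps27l, Rpl10a, Rpl27a, Rpl39, Rps6 and Rps4l.

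A few ribosomal proteins exist as paralog pairs, in which the copy marked l or l1 can take the place of the common protein in some tissues. Rpl3l, the striated muscle form, had signals of 3757, 4440, 4531 and 3009 in controls and 3186, 4348, 4366 and 4633 in GR_KO. Control replicate 4 and GR_KO replicate 1 were the lowest arrays, the groups overlapped, and the log2 fold change was 0.08 (SE 0.18, 95% interval of the fold 0.807 to 1.38, adjusted p = 0.940 in limma). It was -0.05 without control replicate 4. Rps27l, a paralog of Rps27 known as a p53 target, read 2295, 2547, 2550 and 1715 against 2247, 1945, 3288 and 3018, with a log2 fold change of 0.19 (SE 0.20) that was 0.06 without that array. Rps4l, a paralog of the X-linked Rps4x, read 56, 66, 61 and 28 against 49, 44, 65 and 105, with 0.31 (SE 0.33) and 0.03 without it. Rps4x itself read 4742, 4805, 4980 and 5945 against 4739, 6069, 5435 and 5175, and its log2 fold change was 0.07 (SE 0.14). Rpl39l, known mainly from testis, was too dim to test, with signals of 1 to 17, and so was the probe set of Rps16, with 0 to 2.

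The ratio of a paralog to its common form was compared within arrays for the 4 of 8 pairs with both genes above the filter. The change of the log2 ratio in GR_KO was 0.20 for Rps27l over Rps27 (two-sided exact permutation p = 0.571) and 0.24 for Rps4l over Rps4x (exact p = 0.657). It was -0.08 for Rpl22l1 over Rpl22 (exact p = 0.657) and 0.01 for Rpl7l1 over Rpl7 (exact p = 0.971). Adjusted over the 4 pairs the exact p-values were 0.876, 0.876, 0.876 and 0.971, and the smallest p that 4 against 4 arrays allow is 0.0286. Rpl3 has no single-symbol probe set, so the ratio of Rpl3l to Rpl3 was not analysed here.

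Across arrays the members varied together. Taking each gene's log2 signal minus its mean over the 8 arrays, the median over the 44 members was -0.09, -0.08, -0.18 and 0.22 in control replicates 1 to 4 and -0.16, 0.12, 0.20 and -0.01 in GR_KO replicates 1 to 4. Control replicate 4 was thus the highest array and control replicate 3 the lowest, with GR_KO replicate 1 next to it, and the groups overlapped. The median of all genes, most of them dimmer than the members, stayed between -0.01 and 0.03 on every array. Bright genes as a set were not profiled in this way. Of other gene lists described below, control replicate 4 was at 0.75 for muscle fibre markers and 0.15 for other mRNAs with a TOP motif. It was at 0.01 for ribosome biogenesis factors and -0.25 for mTORC1 and S6 kinase genes. The large and small subunit genes had nearly the same profile, at 0.21 and 0.24 on control replicate 4 and -0.20 and -0.14 on GR_KO replicate 1. Within a group, the members' median SD was 0.23 log2 units against 0.29 for all genes. Among controls it was 0.27, and 0.12 without control replicate 4.

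Control replicate 4 held the highest signal in 22 of 44 members (50%), against 26.4% of all genes and 18.1% of the genes with a mean signal above 1000. GR_KO replicate 3 was the highest in 14 (31.8%, against 13.9% of all genes and 29.3% of the bright ones), and control replicates 1 to 3 were the highest in 0. Control replicate 4 was the lowest array in 8 members (18.2%), a smaller share than the 27.9% of all genes. These were Rpl3l, Rps27l, Rps4l, Rps6, Rpl10a, Rpl14, Rpl27a and Rpl39. The paralogs Rpl3l, Rps27l and Rps4l had median deviations of -0.49 on control replicate 4 and 0.33 on GR_KO replicate 4. The medians over the other 41 members were 0.24 and -0.02. A low control replicate 4 was not particular to the paralogs, since Rps6, Rpl10a, Rpl14, Rpl27a and Rpl39 had it too.

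The members' profile ran with the signal of the spike-in probe sets, which report added bacterial transcripts and not muscle RNA. The geometric mean of the spike-ins was 516, 566, 456 and 1620 in controls and 466, 617, 802 and 536 in GR_KO. Over the 8 arrays, which share their scaling, the members' median profile and the log2 spike-in level had Pearson's r = 0.84 and Spearman's rho = 0.98, and r = 0.94 without control replicate 4, as a description. Of the members 26 (59.1%) had r above 0.5 with the spike-ins, against 16.7% of all genes and 18.2% of the bright ones, while Rpl14, Rps4l and Rps6 had r below -0.5. Muscle fibre markers were also highest on control replicate 4, with medians of -0.13, -0.17, -0.31 and 0.75 in controls and -0.43, 0.23, 0.21 and -0.17 in GR_KO. The part of the spike-in level in the members' values was examined only by adding it as a covariate: the members' median was then 0.11, with 40 of 44 above 0 and 0 called by limma, and 53.4% of all genes lay above 0 with a median of 0.02.

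**Figure D3:**
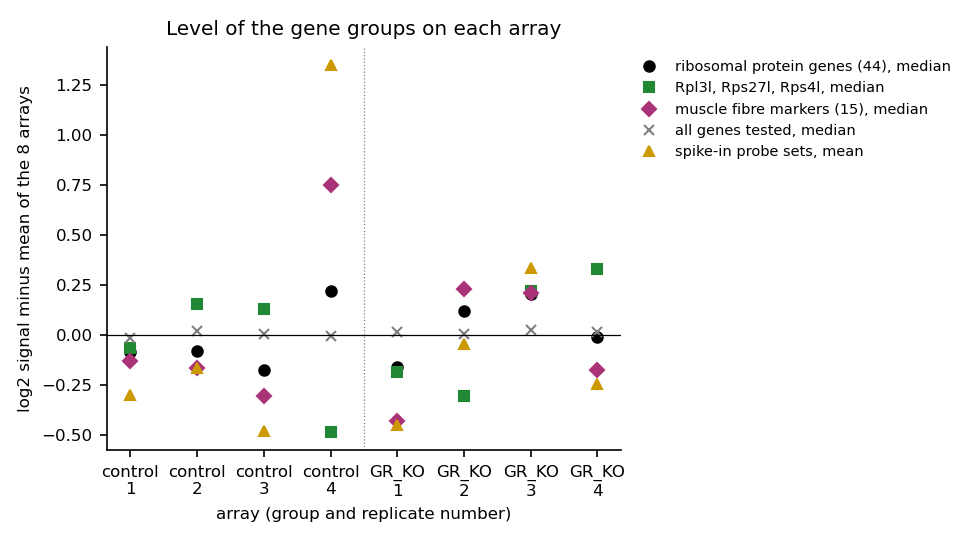
Median deviation of log2 signal from the mean of the 8 arrays, for the 44 ribosomal protein genes, the paralogs Rpl3l, Rps27l and Rps4l, 15 muscle fibre markers and all genes tested, with the mean of the spike-in probe sets, by array. The ribosomal protein genes (black) lie between -0.18 and 0.22 and, like the spike-ins and the muscle fibre markers, are highest on control replicate 4. The median of all genes stays between -0.01 and 0.03, and bright genes as a set are not shown.

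Without control replicate 4 the members' median log2 fold change was 0.14 and 39 of 44 (88.6%) lay above 0, against 53.9% of all genes and their median of 0.02. Limma called 0 members (adjusted p from 0.980 to 0.996) and 4 (0.0362%) of all genes. In that comparison 3 members, Rpl11, Rps3 and Rps6, had all GR_KO above all control arrays, against 2.36% of all genes. GR_KO replicate 1 also set this count: without it, 7 members did so (Rpl10a, Rpl19, Rpl27, Rplp0, Rps10, Rps26 and Rps6), against 7.19% of all genes, and the median was 0.14. Without GR_KO replicate 2 the count was 2 (Rpl37 and Rps6), against 2.4% of all genes. With quantile normalization of all 8 arrays it was 4 (Rps14, Rps26, Rps28 and Rps6), against 1.44%, and with median centring it was 0, against 0.696%, so that the groups of Rps6 then overlapped. Without GR_KO replicate 3 the median was 0.02, with 26 of 44 above 0, and 0 members were called by limma under any omission of 1 array.

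**Figure D4:**
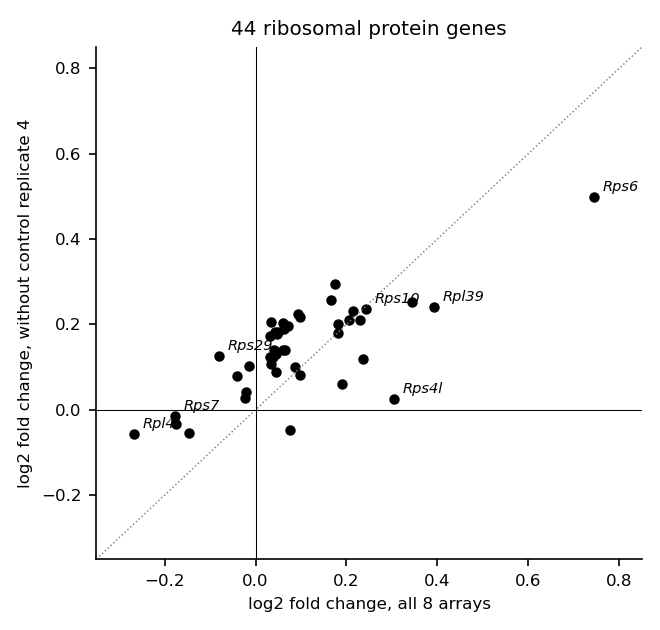
Log2 fold change (GR_KO over control) of the 44 ribosomal protein genes with all 8 arrays (horizontal) and without control replicate 4 (vertical), with the dotted line of equal values. Most genes lie above the line, with Rpl4 moving from -0.27 to -0.06, while Rps6 and Rps4l lie below it, at 0.50 and 0.03 on the vertical axis.

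Probe sets of the same gene gave a check on these values. Of the 100 probe sets of the members 87 were bright enough to test, and limma called 0 of them (smallest adjusted p = 0.963), against 5 of 22518 (0.0222%) over all probe sets. Their median log2 fold change was 0.05, with 60 above 0, and control replicate 4 was the highest array in 40. Groups did not overlap in 2 of the 87, 1416142_at of Rps6 and 1455001_x_at of Rpl13a, both higher in GR_KO. An unadjusted p under 0.05 in limma was reached by 2, that Rps6 set and 1453096_x_at of Rpl27 (0.43, SE 0.19). The shares of such sets over all probe sets were not counted. Sets ending in _x_at, whose probes can also bind other transcripts, had 24 of 38 above 0, and sets ending in _a_at, whose probes match several transcripts of 1 gene, had 21 of 25. The plain _at sets had 12 of 21 above 0 and the _s_at sets 3 of 3. Of 19 genes with at least 2 tested probe sets, 13 had the same sign in all of them. The other 6 were Rpl35, Rpl37a, Rpl41, Rps10, Rps3 and Rps9.

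Both dim and brighter sets were among those that disagreed. For Rpl37a, the bright sets 1460543_x_at and 1416217_a_at gave 0.06 and 0.05, and the dim 1416218_x_at, at 50 to 222, gave -0.56 (SE 0.47). For Rpl35, 5 bright sets gave between -0.00345 and 0.04, and 1454833_at, at 17 to 52, gave -0.55 (SE 0.33). Rps10 had 4 sets between 0.19 and 0.25. Its 1439374_x_at, at 834 to 3036, gave -0.13 (SE 0.38), and its dim 1436384_at, at 15 to 26, gave -0.04 (SE 0.30). For Rpl41 the bright 1422623_x_at, at 4063 to 10250, gave -0.08 (SE 0.27), against 0.09 (SE 0.18) for the brightest set. The dim sets of Rpl41 gave -0.30 and -0.19. The 99 tested probe sets that list a ribosomal protein with other symbols had a median of 0.04, and 0 were called by limma.

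**Figure D5:**
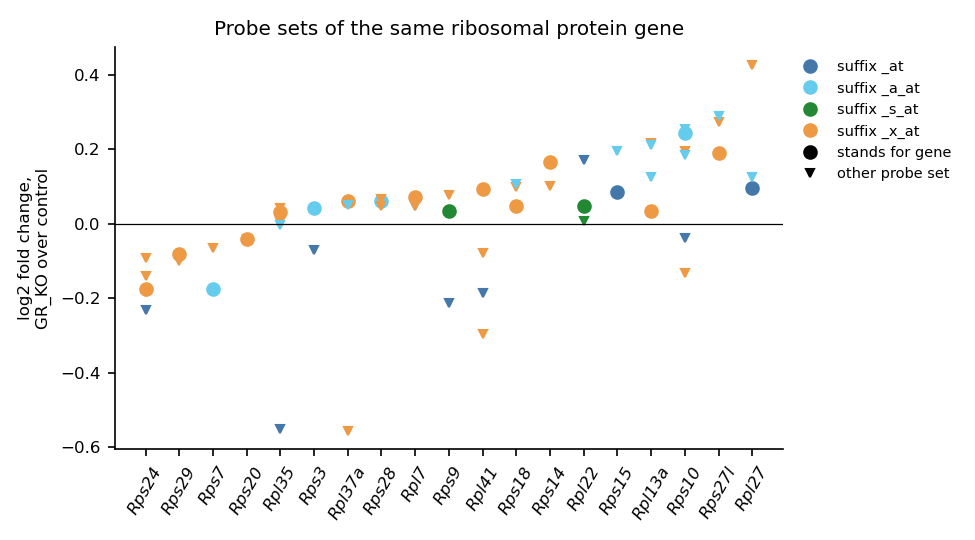
Log2 fold change (GR_KO over control) of every tested probe set of the 19 ribosomal protein genes with at least 2 of them; the large circle stands for the gene, triangles are its other probe sets, and colours give the ending of the probe set name. For 13 genes all points lie on the same side of 0, and the widest range, 0.62, is that of Rpl37a.

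The start sequences did not divide the members by their median fold change, but the ranges differed. The 21 tested members with a C and T run of at least 8 bases, such as Rps6, Rps10 and Rpl4, had a median log2 fold change of 0.06 with 17 above 0, and the 17 with a shorter run also had 0.06 with 15 above 0. Control replicate 4 was the highest array in 10 of the first and 8 of the second. Fold changes ran from -0.27 to 0.74 with a run of at least 8 bases and from -0.18 to 0.21 with a shorter one. Rps6 and Rpl4, at the ends of the range over all members, both carried a run of at least 8.

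Genes around the ribosome were described from lists of known function. Ribosome biogenesis factors, which process ribosomal RNA and assemble the subunits, had 69 of 71 measured and tested, 0 called by limma, 31 above 0 and a median of -0.01. Among them Nolc1, a nucleolar phosphoprotein, read 118, 97, 155 and 120 against 102, 77, 92 and 91, with a log2 fold change of -0.42 (SE 0.18, adjusted p = 0.880 in limma). Mybbp1a, a nucleolar Myb-binding protein, had 0.34 (SE 0.16). Rcl1, which takes part in ribosomal RNA processing, read 112, 114, 124 and 122 against 90, 96, 110 and 95. For Rcl1 every GR_KO array was below every control, at a log2 fold change of -0.27 (SE 0.14, adjusted p = 0.880 in limma).

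Other mRNAs with a TOP motif, mainly translation factors, had 20 of 24 listed symbols tested, 0 called, 10 above 0 and a median of 0.02. The listed symbols include Rack1 and its older name Gnb2l1. In this list Vim (vimentin) had 0.31, Eif2s3x (an initiation factor subunit) -0.29 and Eef1d (an elongation factor subunit) 0.21. A list of 9 further ribosomal protein symbols outside the member set, again with both names of Rack1, had 4 tested. Fau, the precursor of a small subunit protein, had 0.18, Rpl7l1 0.08, Rpl22l1 -0.03 and Rps3a1 -0.06. Genes of mTORC1 and S6 kinase signalling had 22 of 25 tested, 0 called by limma, 11 above 0 and a median of 0.01. Deptor, an inhibitor of mTOR, read 1064, 1043, 842 and 791 in controls and 1082, 1642, 1296 and 1380 in GR_KO. All GR_KO arrays of Deptor were above all controls, with a log2 fold change of 0.53 (SE 0.16, adjusted p = 0.850 in limma). Pdcd4, a translation inhibitor degraded after S6 kinase phosphorylation, had -0.71 (SE 0.32) and Max, the partner of Myc, 0.41 (SE 0.25).

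The muscle fibre markers, whose sums are given further above, had 2 of 15 above 0 and a median log2 fold change of -0.10. Markers of other cells of the muscle were summed on each array. Fibroblast and matrix markers (18 of 19 tested, 14 above 0) summed to 16516 to 28081 in controls and 23610 to 35145 in GR_KO, and endothelial markers (16 of 16 tested, 14 above 0) to 8218 to 10472 and 8461 to 12344. Macrophage and leukocyte markers (16 of 18 tested, 4 above 0) summed to 1314 to 7773 and 1624 to 4941, smooth muscle and pericyte markers (9 of 10 tested, 7 above 0) to 12625 to 15914 and 12238 to 15717. Schwann cell markers (6 of 9 tested, 6 above 0) summed to 1060 to 3906 and 1442 to 4139. Adipocyte (3 of 8 tested), erythrocyte (2 of 6) and satellite cell markers (5 of 7) had 1, 2 and 2 above 0. Among these lists the satellite cell gene Myf5 was at 0 on some arrays. No marker was called by limma, and the part of these cells in the ribosomal protein values was not tested.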

How the data were processed

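Total RNA of 8 gastrocnemius samples was extracted with Trizol and biotin-labelled cRNA from 6 ug of it was hybridised to Affymetrix arrays, per the labels' protocols. The deposited values are linear signal intensities that the authors made with MAS5, per the submitters' processing notes, and its version is not given in the sources used here. A trimmed mean near 99.96 on every array shows that arrays had been scaled alike. Of 45101 probe sets, 64 controls were left out. By the platform annotation, 34945 of the rest carry 1 symbol, 932 carry several and 9160 carry none; the single-symbol sets alone name a gene. Values of 0 were set to the array's smallest positive value (2 of the members' values, both of the untested Rps16). A gene was tested if its mean log2 signal exceeded the median over probe sets, equal to a signal of 19.4 (11062 of 18193 genes).

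Log2 signals were compared between the groups in limma 3.58.1 under R 4.3.3, using lmFit and a trended eBayes with two-sided tests. Benjamini-Hochberg adjustment covered every gene tested, and calls were made at 0.05. The method was tested on data simulated with each gene's own spread. It called 13.8% of changes of 0.58 log2 units and 55.5% of changes of 1 log2 unit, so smaller changes could be missed. Paralog ratios had exact permutation tests. No 2 arrays held identical values. Precision is limited by the 4 arrays per group. Named members are the 6 highest and 6 lowest fold changes, the 8 smallest p-values and 14 genes of known interest, of which Rpl3, Rpl5 and Rplp1 have no single-symbol probe set. Of each other pathway list the 3 smallest p-values are named, and Fau, Rpl7l1, Rpl22l1 and Rps3a1 are the tested genes of their list. Probe sets singled out beside a gene were chosen after their values were seen. The members and lists were chosen with earlier results of these data known. Promoter sequences are RefSeq's for GRCm38.p6. The alternatives varied normalization, pseudocount, filter, probe set rule, variance model and single arrays.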

Additional observations from a re-analysis of the deposited data

Results flagged for a closer look

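Among 54 groups of 4 arrays looked at, 6 held an array far from the other 3. The measure was a gap divided by the group's range, on log2 signals, above Dixon's critical value at the 95% level. By chance about 1 in 20 groups is flagged. The 54 groups do not cover all 44 tested members, so the flags are not a full count over them. On control replicate 4 the signal was high for Rpl11 (2092, ratio 0.83), Rpl12 (100, ratio 0.859) and Rpl13a (10671, ratio 0.855). In GR_KO replicate 1 it was low for Rplp0 (5140, ratio 0.873) and Rpl3l (3186, ratio 0.83) and high for Rpl4 (4963, ratio 0.92). The flags thus fell on the 2 arrays whose omission moved the members' median to 0.14.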

How the results depend on the processing

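Limma called 0 of the members and 0 of their probe sets under every alternative run, apart from the unadjusted threshold, at which 1 member (Rps6) passed. The 25 named members had 495 alternative fits, with a smallest adjusted p of 0.419. Over the other normalizations, pseudocounts, filters and probe set rules the median log2 fold change stayed between 0.03 (quantile normalization) and 0.09 (median centring), and members above 0 numbered 32 and 38 of 44 with these, 28 of 44 with the mean of a gene's probe sets and 28 of 38 without _x_at and _s_at sets. Members with groups that do not overlap numbered 4 with quantile normalization and 0 with median centring, where all GR_KO lay above all control in 1.44% and 0.696% of all genes. With 1 array left out, 0 members were called, the median ran from 0.02 to 0.14, members above 0 from 26 to 39, members with non-overlapping groups, all higher in GR_KO, from 1 to 7 (1.81% to 7.19% of all genes), and called probe sets stayed at 0.

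Some fold changes changed sign. Rpl27a, at 0.34, was -0.12 as the mean of its probe sets, of which the second is dim. With quantile normalization Rps29 was 0.00129, Rpl3l -0.00970 and Rps19 -0.00586, and with array weights Rps29 was 0.12 and Rps20 0.0868. Over the omissions of 1 array, Rps29 ran from -0.19 to 0.13, Rps20 from -0.15 to 0.0790, Rpl3l from -0.0474 to 0.20, Rpl13a from -0.0466 to 0.21 and Rps19 from -0.0478 to 0.12. The cause was not tested.

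Same-numbered arrays had correlations of -0.19, 0.18, 0.11 and -0.39 of their deviations from the group means, and 0 of the 4 matched its own number best, so the numbers were not taken as pairs. With the replicate block limma called 0 members and 0 of their probe sets. Shared probe sets and the spike-in covariate were alternatives added after seeing the data: with the shared sets included, the median was 0.05 and 0 were called. The ratio of Rpl3l to Rpl3 and its alternatives were not run, since Rpl3 has no probe set of its own. Dim probe sets limit what can be seen of Rpl14, Rpl39, Rps4l and Rps27.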
